A study of Homo sapiens with 17 samples.

Results

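The 54 genes described here form the mitosis and G2/M programme, which is the set of cyclins, kinases, checkpoint proteins, motors and chromosome proteins that carry a cell from the end of interphase through division. They were selected by gene symbol, by a rule that uses no measured value, although the list was drawn up with earlier results of these data known. All 54 symbols were found among the 58870 entries of the count table, and all 54 were among the 15365 genes with enough counts to be tested. Their counts ran from 159 to 16335 per gene and library.

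RNA was sequenced from MDA-MB-231, a long-established line of human triple-negative breast cancer cells (without receptors for oestrogen or progesterone and without amplified HER2), labelled mesenchymal basal B. The cells were given 45 nM TRAIL, a TNF-family protein that binds death receptors and can trigger apoptosis, used here at a dose below the optimum to study cells that stay alive. The 6 groups are cells of this single line after 0, 1, 3, 6, 12 and 24 h, with 3 libraries each except 2 analysed at 1 h, in RPMI medium with 10% serum. All 17 libraries, those at 0 h included, carry the same TRAIL label, with 0 untreated libraries beside any later time, so time with TRAIL and time in culture cannot be told apart. The labels do not say whether replicates came from separate cultures, so p-values measure the spread between these samples only. In RNA from whole cultures, a change in the share of cells in G2 and mitosis and a change in RNA per such cell cannot be told apart either.

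As background, cells entering mitosis switch on CDK1 through cyclin B, and the genes of this programme are transcribed mainly in G2. In quiescent and early-cycle cells the DREAM complex holds them off, and later the B-MYB and MuvB proteins and FOXM1 turn them on. Many of their promoters carry a cell-cycle homology region (CHR), whose usual letters are TTTGAA, downstream of CCAAT boxes bound by NF-Y. The anaphase-promoting complex (APC/C) then marks cyclin B and securin for destruction so that chromosomes separate. In breast cancer the levels of these genes, Ki-67 among them, serve as a measure of proliferation.

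The promoters of 8 members are printed because their transcripts took different courses after TRAIL, while most of them carry the same short motifs. Each line is the 150 bases before the RefSeq start of the gene on GRCh38.p14, in the direction of transcription. Capitals mark the CHR letters TTTGAA, their variant with an A in place of the G (TTTAAA), and the CCAAT box, each on either strand, so that ATTGG in capitals is a box on the other strand. CCNB1, CCNB2, KIF20A, NEK2 and PTTG1 were called higher at 12 h than at 6 h, PLK1 and MKI67 were among the members with the largest changes at 6 h, and AURKB had its lowest level at 24 h.
CCNB1: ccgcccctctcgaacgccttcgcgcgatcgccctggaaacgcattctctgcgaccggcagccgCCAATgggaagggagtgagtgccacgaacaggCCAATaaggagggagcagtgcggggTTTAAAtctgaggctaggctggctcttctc
CCNB2: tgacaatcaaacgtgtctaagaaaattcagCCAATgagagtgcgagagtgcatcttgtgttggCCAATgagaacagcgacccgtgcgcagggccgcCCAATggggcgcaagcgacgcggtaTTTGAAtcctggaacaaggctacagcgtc
KIF20A: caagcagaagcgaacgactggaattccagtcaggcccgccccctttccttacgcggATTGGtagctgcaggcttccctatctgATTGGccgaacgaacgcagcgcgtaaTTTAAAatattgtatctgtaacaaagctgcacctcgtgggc
NEK2: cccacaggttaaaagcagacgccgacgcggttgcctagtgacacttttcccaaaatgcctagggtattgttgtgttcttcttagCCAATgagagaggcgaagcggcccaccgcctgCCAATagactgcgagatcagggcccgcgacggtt
PTTG1: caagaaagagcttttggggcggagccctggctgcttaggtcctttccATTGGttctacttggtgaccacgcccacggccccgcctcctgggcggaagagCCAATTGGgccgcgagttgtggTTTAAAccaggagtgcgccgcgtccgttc
PLK1: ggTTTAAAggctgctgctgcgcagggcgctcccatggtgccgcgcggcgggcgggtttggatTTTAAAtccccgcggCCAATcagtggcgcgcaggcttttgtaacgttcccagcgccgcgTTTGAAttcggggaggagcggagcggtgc
MKI67: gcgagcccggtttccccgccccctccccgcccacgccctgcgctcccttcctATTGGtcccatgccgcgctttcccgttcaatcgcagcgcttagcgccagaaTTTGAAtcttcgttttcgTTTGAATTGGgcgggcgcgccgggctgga
AURKB: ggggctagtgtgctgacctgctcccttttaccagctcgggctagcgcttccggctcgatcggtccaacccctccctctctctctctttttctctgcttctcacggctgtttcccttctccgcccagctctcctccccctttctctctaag

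The stretches lie at chr5:69167000-69167149 for CCNB1, chr15:59104996-59105145 for CCNB2, chr5:138178962-138179111 for KIF20A, chr5:160421705-160421854 for PTTG1 and chr16:23678739-23678888 for PLK1 on the plus strand. Those of NEK2 at chr1:211675622-211675771, MKI67 at chr10:128126424-128126573 and AURKB at chr17:8210226-8210375 are on the minus strand. In GENCODE 29 the genes PLK1, KIF20A and AURKB begin further upstream, so these stretches fall inside the annotated gene. The gene CCNB1 begins at base 69167010, so most of its stretch lies inside the gene too. Those of CCNB2, NEK2 and PTTG1 overlap the first bases of the gene. The sequences show CCAAT boxes ahead of one of the CHR-type motifs in CCNB1, CCNB2, KIF20A, PTTG1, PLK1 and MKI67, CCAAT boxes alone in NEK2, and no marked motif in AURKB. A CCAAT box of AURKB on the other strand begins at -153 from the start, across the edge of the printed stretch, and so is not marked.

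Over the whole RefSeq window, from 250 bases before to 50 after the start, 47 of the 54 members had a sequence. The letters TTTGAA, on either strand, were found in 35 of these 47 promoters (74.5%), against 15.4% of all 27305 promoters of the table. CCAAT was found in 36 (76.6%, against 35.7% of all promoters), and 29 held both of these (61.7%, against 6.08%). The related TTTAAA was in 15 (31.9%, against 12.3%). The E2F-type letters, TTCCCGC or the alternative form TTGGCGC, were in 9 (19.1%, against 9.33%). Among 34 promoters of S phase genes TTTGAA was in 1 (2.94%) and the E2F-type letters were in 24 (70.6%). These are matches of letters, not measured binding sites.

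Total counts per library ranged from 13731520 to 19234924. The mesenchymal markers VIM (2495 to 3724 CPM) and CD44 (1219 to 1557 CPM) were high in every library, ESR1, PGR and PTPRC were at or near 0 (at most 0.334 CPM), and EPCAM was low (13.1 to 19.3 CPM). The 54 members together took 0.901% to 0.928% of all counts at 0 h and 1.07% to 1.13% at 6 h, without overlap. Replicates 2 and 3 at 6 h and replicates 2 and 3 at 24 h were closer to each other than any other replicate pair (chi-square per gene of 1.57 and 1.67, against 3.44 to 12.3). Counts with each such pair averaged into 1 are given where they differed most.

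Changes of this programme were small in size, and most members moved up after a delay. 52 of the 54 differed between times in the test over all 6 times, against 64.2% of all genes, and the other two were CKS1B, a small CDK-binding protein, and NCAPG, a condensin subunit. Mean levels were highest at 6 h for 31 members (19.0% of all genes) and at 12 h for 15 (10.4%), and lowest at 1 h for 22 (12.8%) and at 3 h for 17 (25.3%). Against 0 h, 5 members (TTK, KIF11, NUSAP1, HMMR and NCAPG) were called at no time, and PLK1 and CDC25B were called at all of 3, 6, 12 and 24 h. The ratio of a member's highest to its lowest mean ran from 1.06 (NCAPG) to 1.87 (ECT2). Per kilobase of transcript, mean CPM over all libraries was highest for UBE2C (399 CPM per kb), CKS2 (322) and CKS1B (286) and lowest for KIF14 (7.91) and HMMR (5.33), the hyaluronan-mediated motility receptor of the spindle. Transcript lengths ran from 613 to 12678 bases, with a median of 3156.5 against 2858 for all genes tested.

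**Figure D1:**
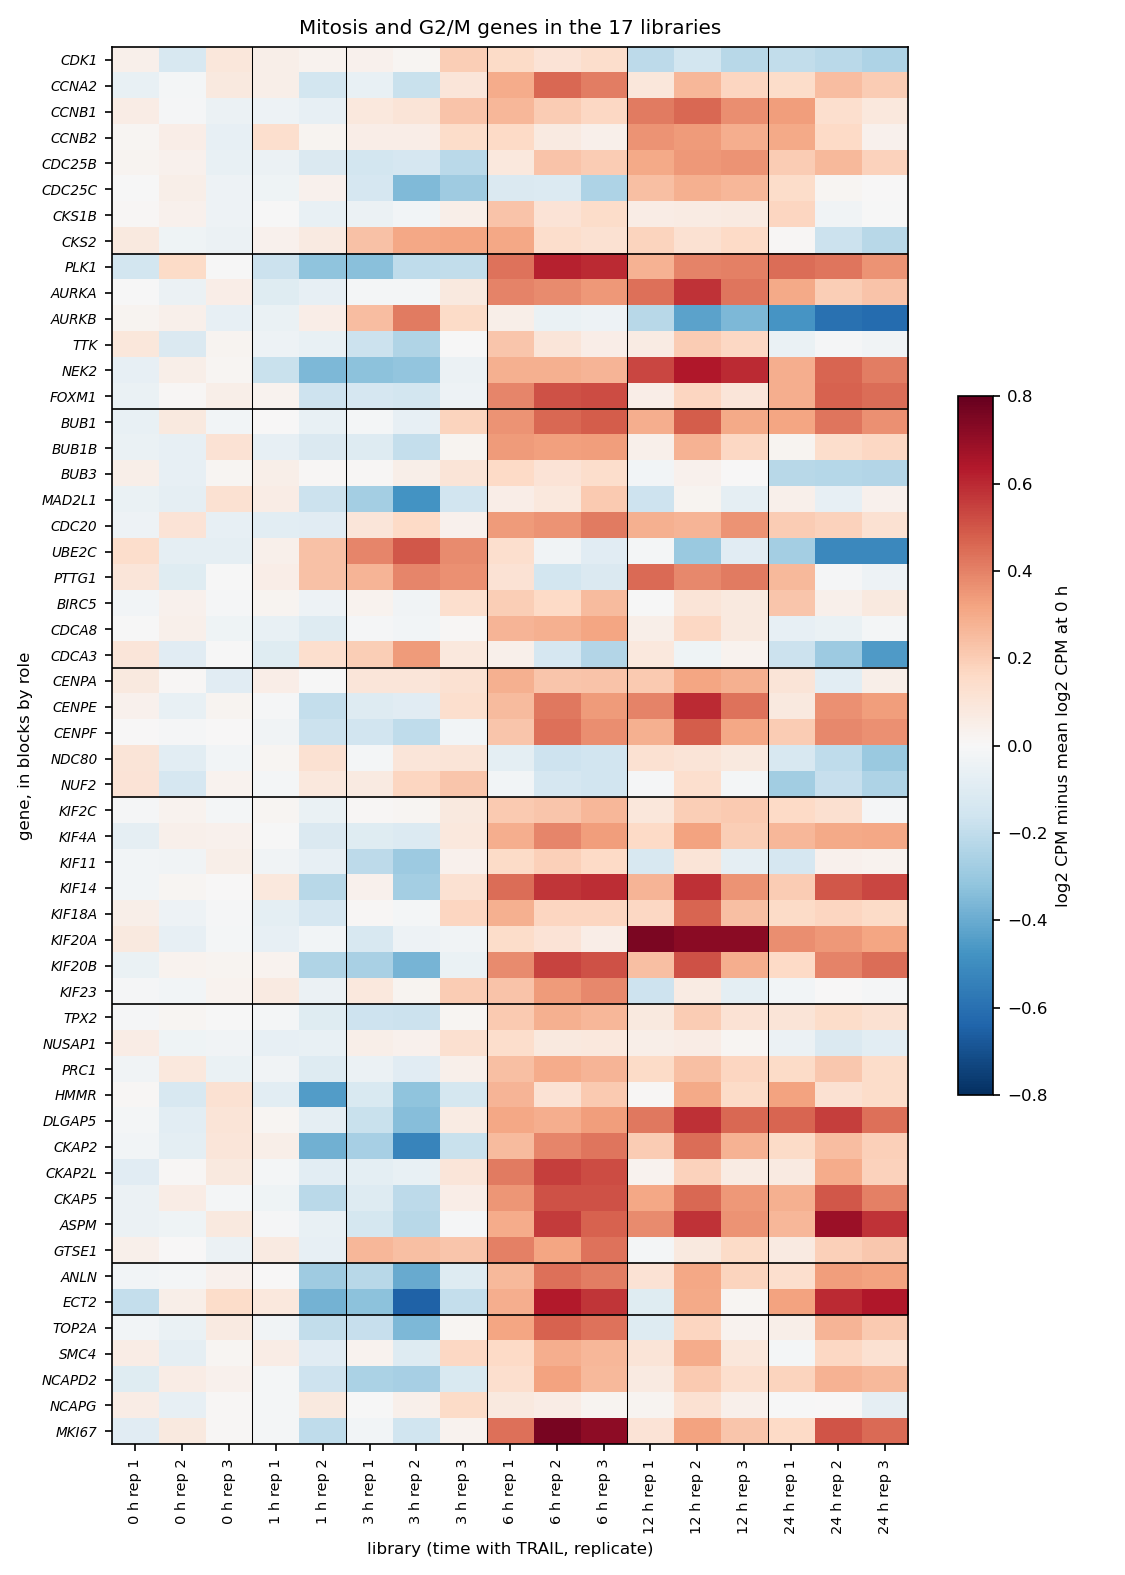
Each row is 1 of the 54 genes in blocks by role, each column 1 of the 17 libraries ordered by time, and colour is log2 CPM minus the gene's mean log2 CPM at 0 h, with red above and blue below. Most rows turn from pale or blue at 1 and 3 h to red at 6 h, where 31 members had their highest mean, while AURKB and UBE2C are red at 3 h and blue at 24 h.

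At 1 h, when TRAIL had been present for the shortest time, 0 of the 54 members passed the test in either direction, against 0.260% of all genes called higher and 0.0521% called lower. DESeq2 and limma-voom also called 0, and 2 members, PLK1 and NEK2, had an unadjusted p under 0.05. The members' median log2 fold change was -0.05, against -0.0041 over all genes. For 11 members both 1 h libraries lay below all 3 libraries at 0 h (8.98% of all genes did so), and for 0 they lay above (10.1%).

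At 3 h members were called in both directions, at shares close to those of all genes. UBE2C (log2 fold change 0.42), PTTG1 (0.34), CKS2 (0.29), AURKB (0.27) and GTSE1 (0.24) were higher than at 0 h, 5 members in all against 9.04% of all genes. CKAP2 (-0.32), MAD2L1 (-0.30), CDC25C (-0.25), PLK1 (-0.25), NCAPD2 (-0.21) and CDC25B (-0.16) were lower, 6 members against 8.71% of all genes. The median over the 54 was -0.02, against -0.0041 over all genes. For 8 members the 3 h libraries lay above those at 0 h without overlap (17.2% of all genes) and for 9 below (16.7%). UBE2C and PTTG1 were the members called here under every alternative tried. The count of lower members was 1 without replicate 2 at 0 h (4.98% of all genes) and 0 without replicate 3 at 0 h (4.35%). It was 2 without replicate 1 at 3 h (5.21%), 0 without replicate 2 at 3 h (4.83%) and 11 without replicate 3 at 3 h (9.18%). The count of higher members was 3 without replicate 3 at 0 h (4.87%). With library size alone as scaling, 4 were higher and 8 lower.

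At 6 h the programme rose broadly: 38 of 54 members were called higher and 0 lower than at 0 h, where 16.9% of all genes were called higher and 13.2% lower. The median log2 fold change was 0.25, against -0.02 over all genes. For 41 members all 3 libraries at 6 h lay above all 3 at 0 h (22.7% of all genes), and for 1 they lay below (21.5%). The largest rises were those of MKI67 (0.64 ± 0.095, adjusted p = 1.2e-04), PLK1 (0.55 ± 0.074, adjusted p = 3.5e-05) and KIF14 (0.54 ± 0.11, adjusted p = 0.0013), where MKI67 encodes Ki-67, the proliferation marker that coats mitotic chromosomes. The smallest called were BUB3 (0.14), CKS1B (0.16) and CDC25B (0.17), which were each lost when 1 of several libraries was left out. Of the 38 calls, 25 stood under every alternative tried. With the close pairs averaged, 27 members were higher (9.41% of all genes) and 0 lower (7.15%).

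Set against 3 h in place of 0 h, 37 members were higher at 6 h (22.9% of all genes) and 6 lower (20.3%). The median was 0.31, against -0.02 over all genes. Without overlap, 39 lay above their 3 h libraries (26.8% of all genes) and 6 below (25.5%). ECT2, the exchange factor that activates RhoA for the cleavage furrow, had the largest rise (0.88 ± 0.16, adjusted p = 6.0e-04), followed by PLK1 (0.80) and KIF20B (0.70). UBE2C (-0.42), PTTG1 (-0.39) and CDCA3 (-0.31) had the lowest values, and AURKB, NUF2 and NDC80 were also called lower. With the length and GC trends of each library removed, UBE2C (-0.03, adjusted p = 0.55), PTTG1 (-0.10, adjusted p = 0.095) and AURKB (-0.01, adjusted p = 0.89) were no longer called lower, while CDCA3 (-0.18), NUF2 (-0.23) and NDC80 (-0.18) were. Between 1 h and 3 h, by contrast, AURKB was the single member called (0.27 ± 0.078, adjusted p = 0.046, 3.17% of all genes higher and 2.56% lower). That call was lost without either 1 h library and without replicate 1 or replicate 2 at 3 h, and the libraries of 12 members at 3 h lay above those at 1 h (16.6% of all genes) and of 2 below (17.1%).

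At 12 h, 23 members were higher than at 0 h (5.96% of all genes) and AURKB (-0.34) and CDK1 (-0.20) were lower (6.48%). The median was 0.17, against -0.0032 over all genes. KIF20A (0.73 ± 0.052, adjusted p = 4.0e-08), NEK2 (0.59 ± 0.074, adjusted p = 3.7e-05) and DLGAP5 (0.49 ± 0.078, adjusted p = 4.7e-04) had the largest rises, and these 3 calls stood under every alternative tried. Without overlap, 34 members lay above their 0 h libraries (16.9% of all genes) and 2 below (15.6%). The count of higher members was 15 without replicate 2 at 12 h (2.13% of all genes). The call of CDK1 was lost without replicate 1 or replicate 3 at 0 h and without any 1 of the 12 h libraries, which left AURKB alone.

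At 24 h, 25 members were higher than at 0 h (18.0% of all genes) and 7 lower (17.1%), with a median of 0.17 against -0.0017 over all genes. Without overlap, 28 lay above (23.0%) and 8 below (22.9%). ECT2 (0.52), ASPM (0.52 ± 0.093, adjusted p = 5.1e-04) and DLGAP5 (0.49 ± 0.078, adjusted p = 1.6e-04) were the highest, and ASPM and DLGAP5 are spindle proteins. AURKB (-0.56 ± 0.070, adjusted p = 1.6e-05), UBE2C (-0.43 ± 0.088, adjusted p = 0.0012) and CDCA3 (-0.30) were the lowest, and NUF2, BUB3, CDK1 and NDC80 were also lower. With replicates 2 and 3 averaged the count of higher members was 16 (11.2% of all genes), without ECT2 (adjusted p = 0.078). The count of lower members was 4 without replicate 1 at 0 h (11.1% of all genes), CDCA3, NUF2 and NDC80 being the ones lost. With library size alone as scaling, 30 were higher (24.4% of all genes) and 4 lower (12.1%).

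From 6 h to 12 h the members parted. Of the 54, 8 were called higher (8.70% of all genes) and 10 lower (11.9%), with a median of -0.08 against -0.0057 over all genes. KIF20A (0.63), PTTG1 (0.46), CDC25C (0.42), NEK2, CCNB2, NDC80, CCNB1 and CDC25B rose. MKI67 (-0.42), CKAP2L (-0.40), KIF23 (-0.38), TOP2A, FOXM1, CDK1, AURKB, GTSE1, CCNA2 and CDCA8 fell. The calls of CCNB1, CCNB2, CDC25B, NDC80, CCNA2 and CDCA8 were each lost under 1 or more alternatives, and the other 12 were not. Without overlap, 11 members lay above their 6 h libraries (17.5%) and 20 below (20.1%). From 12 h to 24 h, FOXM1 was higher (6.42% of all genes) and 12 members were lower (5.60%), led by KIF20A (-0.39), PTTG1 (-0.34) and CDCA3 (-0.33). Here 2 members lay above without overlap (15.8%) and 20 below (14.2%), and 3 of the 13 calls stood under every alternative. Members rising from 6 h to 12 h were 5 without replicate 2 at 6 h (4.92% of all genes). They were also 5 without replicate 3 at 6 h (4.67%) or replicate 1 at 12 h (5.37%), and 4 with the close pairs averaged (4.53%). From 12 h to 24 h the lower members were 5 without replicate 1 at 12 h or replicate 2 at 24 h. They were 4 without replicate 3 at 24 h and 3 with the close pairs averaged. The higher ones were 2 without replicate 2 at 12 h (5.31% of all genes) or replicate 1 at 24 h (9.98%). With the close pairs averaged they were 0 (1.80%).

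**Figure D2:**
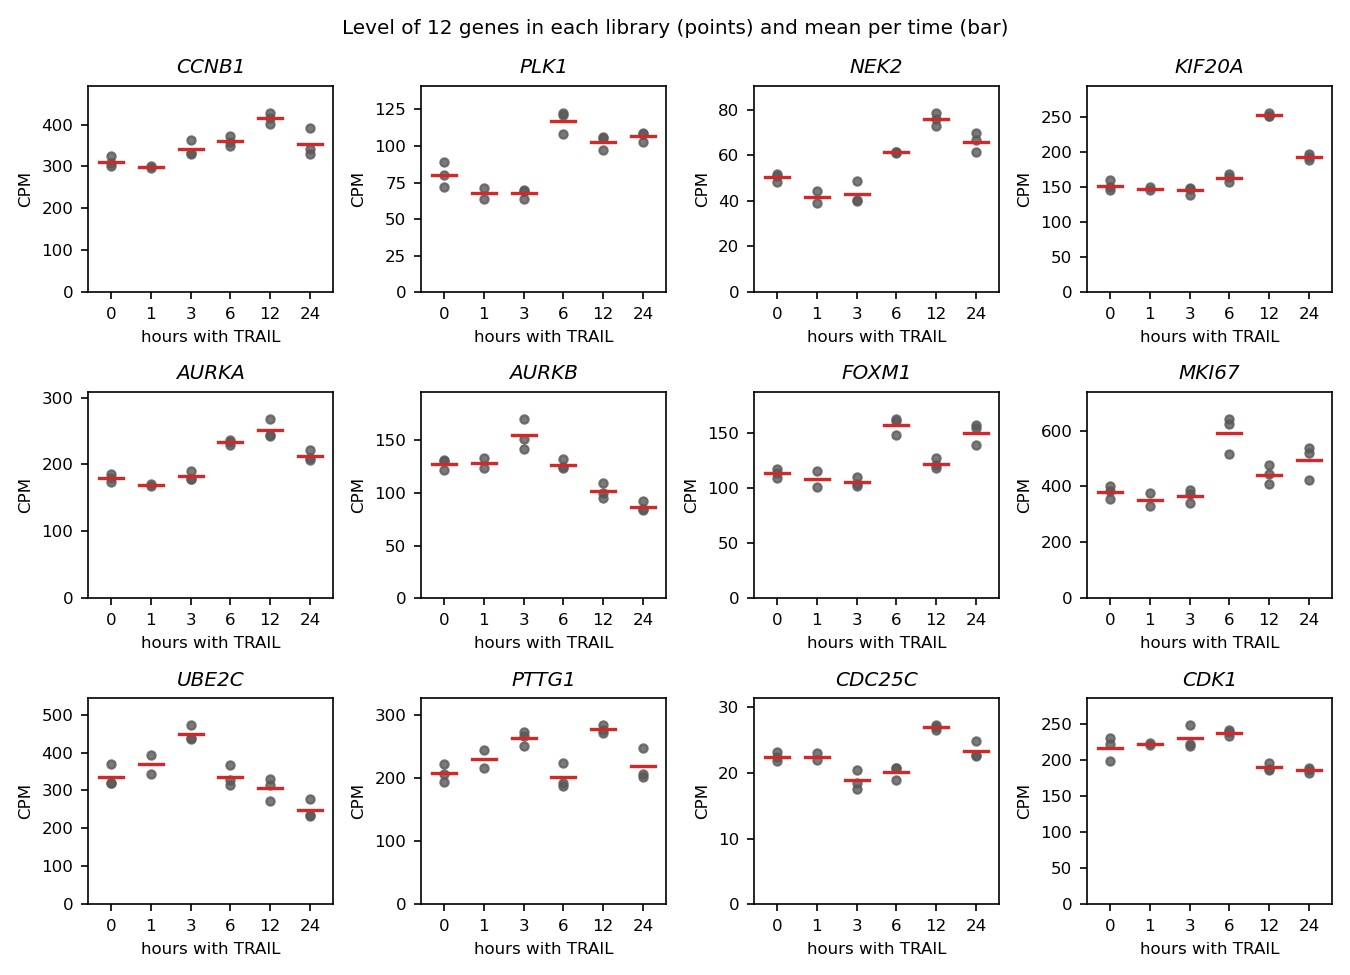
Each panel plots 1 gene's level in CPM (linear axis from 0) against hours with TRAIL, with a point for each library and a bar at the mean of each time. KIF20A stands at 251 to 256 CPM at 12 h and at most 197 CPM in every other library, PLK1 steps up between 3 h and 6 h, and AURKB peaks at 3 h.

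CDK1, the kinase that drives mitotic entry, was lower at 12 h and 24 h than at 0 h, while its partner cyclins B1 and B2 were higher at 12 h. The CDK1 transcript (ENSG00000170312.15, chr10:60778331-60794852, plus strand in GENCODE 29 on GRCh38) stood at 223, 199 and 231 CPM at 0 h, then 224 and 221 after 1 h, 222, 219.8 and 249 after 3 h, 242, 234 and 239 after 6 h, 188, 196 and 186 after 12 h, 189, 187 and 183 after 24 h. All 12 h and 24 h libraries lay below those at 0 h, 1 h, 3 h and 6 h, and CDK1 was lower at 12 h (-0.20 ± 0.060, adjusted p = 0.038) and at 24 h (-0.22 ± 0.060, adjusted p = 0.0072, adjusted p = 0.067 with library size alone as scaling). CCNB1, which encodes cyclin B1 (ENSG00000134057.15, chr5:69167010-69178245, plus strand), stood at 324, 308 and 301 CPM at 0 h, then 302 and 297 after 1 h, 329.8, 333 and 364 after 3 h, 373, 358 and 349 after 6 h, 415, 428 and 401 after 12 h, 392, 341 and 329.5 after 24 h. The 3 libraries at 12 h were the highest of all 17 and did not overlap with any other time (0.42 ± 0.063, adjusted p = 3.1e-04).

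Cyclin B2 and both phosphatases, CDC25B and CDC25C, which remove inhibitory phosphates from CDK1, were also higher at 12 h than at 0 h. CCNB2 was called higher at 12 h (0.33) and CDC25C fell at 3 h (-0.25) and rose at 12 h (0.26), although the calls of CDC25C were lost when 1 of several libraries was left out. CDC25B (ENSG00000101224.17, chr20:3786772-3806121, plus strand) stood at 125, 126 and 118 CPM at 0 h, then 119 and 113 after 1 h, 111, 112 and 106 after 3 h, 130.4, 144 and 141 after 6 h, 151, 156 and 158 after 12 h, 141, 147 and 139.5 after 24 h. Its 12 h libraries were the highest of all, and its 3 h libraries lay below those at 0 h, with a change of 0.34 ± 0.053, adjusted p = 4.7e-04 at 12 h. CCNA2, the cyclin of S phase and G2, rose at 6 h (0.39), and its counts were not whole in at least 15 libraries, as were those of CKS1B, AURKA, FOXM1, CDCA3, KIF2C, KIF23, PRC1, SMC4, NCAPD2 and NCAPG, where fragments were divided between genes. Of the 8 genes of this group, 5 were higher at 6 h (16.9% of all genes), while 4 were higher and 1 lower at 12 h (5.96% and 6.48%) and also at 24 h (18.0% and 17.1%).

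Among the mitotic kinases PLK1, NEK2 and AURKA were higher from 6 h on and AURKB was lower at 12 h and 24 h. PLK1, which matures centrosomes and works through to cytokinesis (ENSG00000166851.15, chr16:23677656-23690367, plus strand), stood at 72.2, 89.0 and 79.8 CPM at 0 h, then 71.1 and 64.0 after 1 h, 63.6, 69.5 and 69.7 after 3 h, 108, 123 and 121 after 6 h, 97.0, 105 and 106 after 12 h, 109, 108 and 103 after 24 h. Every library from 6 h on lay above every library before it. PLK1 was lower at 3 h (-0.25 ± 0.076, adjusted p = 0.028, lost without replicate 2 or 3 at 0 h or replicate 1 or 2 at 3 h) and higher at 6 h, 12 h (0.36) and 24 h (0.41).

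NEK2, a kinase that separates centrosomes (ENSG00000117650.13, chr1:211658657-211675630, minus strand), stood at 48.1, 52.0 and 51.0 CPM at 0 h, then 44.6 and 39.3 after 1 h, 40.1, 40.5 and 48.8 after 3 h, 61.4, 61.4 and 60.9 after 6 h, 72.7, 78.6 and 76.0 after 12 h, 61.5, 69.6 and 66.8 after 24 h. All libraries from 6 h on lay above those at 0, 1 and 3 h, and those at 12 h were the highest. NEK2 rose at 6 h (0.28 ± 0.075, adjusted p = 0.0085) and again from 6 h to 12 h (0.31 ± 0.073, adjusted p = 0.0057). AURKA, the Aurora kinase of the spindle poles (ENSG00000087586.17, chr20:56369389-56392337, minus strand), stood at 179, 174 and 186 CPM at 0 h, then 168 and 171 after 1 h, 178, 178 and 190.1 after 3 h, 237, 233 and 229 after 6 h, 244, 268 and 242 after 12 h, 222, 206 and 210.2 after 24 h. Its libraries from 6 h on lay above all earlier ones, and its largest change was 0.48 ± 0.054, adjusted p = 1.1e-05 at 12 h.

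AURKB is the Aurora kinase of the chromosomal passenger complex (ENSG00000178999.13, chr17:8204733-8210600, minus strand). It stood at 130.2, 132 and 122 CPM at 0 h, then 124 and 133 after 1 h, 152, 170.5 and 142 after 3 h, 132, 124 and 124 after 6 h, 109, 95.2 and 99.9 after 12 h, 92.4, 84.8 and 83.4 after 24 h. The 3 h libraries were the highest of all 17, those at 6 h fell back among those at 0 h, and the 12 h and 24 h libraries lay below all earlier ones. AURKB was higher at 3 h (0.27 ± 0.069, adjusted p = 0.011, lost without replicate 3 at 0 h or replicate 2 at 3 h) and lower at 12 h (-0.34 ± 0.070, adjusted p = 0.0040). FOXM1, a transcription factor of this programme (ENSG00000111206.12, chr12:2857681-2877155, minus strand), stood at 109, 114 and 117 CPM at 0 h, then 116 and 101 after 1 h, 103, 102 and 110.4 after 3 h, 148, 161 and 163 after 6 h, 118, 127 and 121 after 12 h, 139, 157 and 154 after 24 h. It was high at 6 h and 24 h, with libraries at 12 h between, and the rise at 6 h (0.47 ± 0.064, adjusted p = 3.8e-05), the fall from 6 h to 12 h (-0.37 ± 0.064, adjusted p = 5.3e-04) and the rise from 12 h to 24 h (0.30 ± 0.064, adjusted p = 0.0066) passed the test, the last lost with the close pairs averaged (adjusted p = 0.056). TTK, the checkpoint kinase MPS1, was not called against 0 h at any time.

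Of the spindle checkpoint and APC/C genes, BUB1 was higher from 6 h on and UBE2C was lower at 24 h. BUB1, a checkpoint kinase at the kinetochore (ENSG00000169679.14, chr2:110637698-110678114, minus strand), stood at 148, 163 and 152 CPM at 0 h, then 154 and 148 after 1 h, 153, 147 and 174 after 3 h, 197, 212 and 216 after 6 h, 189, 216 and 190.1 after 12 h, 191, 207 and 199 after 24 h. Every library from 6 h on lay above all earlier ones, and the change at 6 h was 0.44 ± 0.069, adjusted p = 1.6e-04. BUB1B rose at 6 h (0.33), whereas MAD2L1, which holds CDC20 in the checkpoint complex, was lower at 3 h (-0.30, lost without replicate 3 at 0 h or replicate 2 at 3 h). CDC20, the activator of the APC/C, was higher at 6 h (0.37) and 12 h (0.30). BUB3, another checkpoint protein, was lower at 24 h (-0.23).

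UBE2C, the ubiquitin-conjugating enzyme that works with the APC/C (ENSG00000175063.17, chr20:45812576-45816957, plus strand), stood at 369.5, 319 and 319 CPM at 0 h, then 344 and 394 after 1 h, 438, 473 and 435 after 3 h, 367, 328 and 314 after 6 h, 331, 273 and 315 after 12 h, 277, 234 and 234 after 24 h. Its 3 h libraries were the highest of the 17, and its 24 h libraries lay below all those up to 6 h and overlapped with those at 12 h, with changes of 0.42 ± 0.087, adjusted p = 0.0030 at 3 h and -0.43 at 24 h. PTTG1, which encodes securin, the inhibitor of separase (ENSG00000164611.13, chr5:160421822-160428744, plus strand), stood at 222, 195 and 207 CPM at 0 h, then 216 and 245 after 1 h, 251, 273 and 267 after 3 h, 225, 188 and 192 after 6 h, 285, 271 and 277 after 12 h, 248, 206 and 202 after 24 h. Its libraries at 3 h and 12 h lay above all others, and it was higher at 3 h (0.34 ± 0.081, adjusted p = 0.0071), down again by 6 h (6 h against 3 h, -0.39, but -0.10, adjusted p = 0.095 with length and GC trends removed) and up at 12 h (0.42 ± 0.081, adjusted p = 0.0026). BIRC5 (survivin) and CDCA8 (borealin), partners of AURKB in the passenger complex, rose at 6 h (0.20 and 0.29) and were not called at 12 h or 24 h, the call of BIRC5 being lost without replicate 1 at 0 h or replicate 3 at 6 h. Of the 10 genes of this group, 6 were higher and 0 lower at 6 h (16.9% and 13.2% of all genes), and 2 were higher and 3 lower at 24 h (18.0% and 17.1%).

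At the kinetochore, CENPF, a large protein of the outer kinetochore (ENSG00000117724.13, chr1:214603195-214664588, plus strand), stood at 319, 316 and 319 CPM at 0 h, then 312 and 282 after 1 h, 286, 277 and 313 after 3 h, 371, 431 and 411 after 6 h, 387, 446 and 395 after 12 h, 366, 416 and 409.5 after 24 h. The libraries from 6 h on lay above all earlier ones, and the change at 12 h was 0.36 ± 0.072, adjusted p = 0.0028. CENPE, the kinetochore motor, was higher at 12 h (0.48), and CENPA, the centromeric histone, at 6 h (0.24) and 12 h (0.27), with both CENPA calls lost without replicate 3 at 0 h. NDC80 and NUF2, which pair in the complex that grips microtubules, were lower at 24 h (-0.21 and -0.24), and both calls were lost without replicate 1 at 0 h.

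Of the 8 kinesin motors, KIF20A had its peak at 12 h and 6 were called higher at 6 h (16.9% of all genes). KIF20A, which brings the passenger complex to the midzone of the dividing cell (ENSG00000112984.12, chr5:138178719-138187715, plus strand), stood at 161, 145 and 150.4 CPM at 0 h, then 145 and 149.7 after 1 h, 139, 148 and 149 after 3 h, 168, 164 and 158 after 6 h, 256, 251 and 251 after 12 h, 197, 194 and 189 after 24 h. The 12 h libraries lay above all others and the 24 h libraries above all of the rest. It ranked 44 of 15365 genes in the test over all times (adjusted p = 1.3e-09), rose from 6 h to 12 h (0.63 ± 0.051, adjusted p = 1.2e-07) and fell from 12 h to 24 h (-0.39 ± 0.051, adjusted p = 1.5e-04). KIF23, a kinesin of the centralspindlin complex, rose at 6 h (0.32) and fell from 6 h to 12 h. KIF2C, which takes microtubules apart, was higher at 6 h (0.23), and so was KIF18A (0.21), whose call was lost when any 1 of several libraries was left out. The rises at 6 h were led by KIF14 (0.54), KIF20B (0.48) and KIF4A (0.34), while KIF11, the motor that pushes spindle poles apart, was not called against 0 h (0.17 at 6 h).

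Of the 10 spindle and microtubule-associated genes, 8 rose at 6 h (16.9% of all genes) and 5 were higher at 12 h (5.96%) and at 24 h (18.0%), with 0 lower at these times (13.2%, 6.48% and 17.1%). DLGAP5, which stabilises kinetochore fibres (ENSG00000126787.13, chr14:55148112-55191678, minus strand), stood at 120.0, 114 and 130.1 CPM at 0 h, then 123 and 115 after 1 h, 107, 95.9 and 127 after 3 h, 150.3, 148 and 153 after 6 h, 163, 182 and 167 after 12 h, 168, 178 and 165 after 24 h. Its libraries at 12 h and 24 h were the highest and did not overlap with those up to 3 h. CKAP5, a microtubule polymerase (ENSG00000175216.14, chr11:46743048-46846308, minus strand), stood at 291, 314 and 298 CPM at 0 h, then 294 and 259.7 after 1 h, 281, 260.5 and 312 after 3 h, 384, 429 and 429 after 6 h, 374, 413 and 383 after 12 h, 367, 426 and 398 after 24 h. All of its libraries from 6 h on lay above all earlier ones (0.46 ± 0.074, adjusted p = 1.9e-04 at 6 h). CKAP2L (0.50), ASPM (0.45), GTSE1 (0.39), CKAP2 (0.36), PRC1 (0.27), which bundles midzone microtubules, and TPX2 (0.25), which activates AURKA, were also called higher at 6 h. HMMR (0.20) and NUSAP1 (0.10) were not. ANLN (anillin) and ECT2, of cytokinesis, both rose at 6 h (0.37 and 0.50), the call of ECT2 being lost without replicate 1 at 0 h or replicate 2 or 3 at 6 h.

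Of the chromosome proteins, MKI67 (ENSG00000148773.14, chr10:128096659-128126385, minus strand) stood at 356, 401 and 383 CPM at 0 h, then 376 and 329.7 after 1 h, 374, 340.1 and 388 after 3 h, 515, 642 and 623 after 6 h, 409, 475 and 443 after 12 h, 423, 538 and 519.7 after 24 h. The 6 h libraries lay above those at 0, 1, 3 and 12 h and overlapped with those at 24 h, and the level fell after 6 h (-0.42 ± 0.095, adjusted p = 0.0044 from 6 h to 12 h). TOP2A, the topoisomerase that untangles sister chromatids, moved likewise, up at 6 h (0.41) and down from 6 h to 12 h (-0.37). Of the condensin subunits, NCAPD2 and SMC4 were called higher at 6 h (0.24 and 0.24), each call lost without replicate 2 at 6 h, and NCAPG was not called at any time.

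The relation of transcript length to these changes differed between comparisons. Over the 54 members, Spearman's rho between length and log2 fold change was 0.64 from 3 h to 6 h (0.46 over all genes) and -0.31 from 6 h to 12 h (-0.23). Against 0 h it was -0.45 at 1 h (-0.20 over all genes) and -0.52 at 3 h (-0.21). At later times against 0 h it was 0.53 at 6 h (0.39 over all genes), 0.14 at 12 h (0.24) and 0.49 at 24 h (0.41). These are given as a description across genes, which share their libraries. The slope of expression on length in each library lay between -0.15 and -0.069 at 3 h and between 0.015 and 0.11 at 6 h, and mitochondrial transcripts took 7.99% to 8.97% of counts at 3 h and 3.97% to 5.45% at 6 h. With the length and GC trends of each library removed, 40 members were higher and 0 lower at 6 h (34 of the 38 calls kept), 25 higher and 4 lower at 12 h (25 of 25 kept), and 26 higher and 11 lower at 24 h (28 of 32 kept). Of all genes, this fit called 17.4% higher and 11.7% lower at 6 h. The shares were 8.25% higher and 7.92% lower at 12 h, with 17.8% higher and 15.96% lower at 24 h. The members' medians became 0.23, 0.12 and 0.12. From 3 h to 6 h, 35 of the 43 calls were kept, and those of UBE2C, PTTG1 and AURKB among the falls, and of TTK, CENPE, KIF11, KIF23 and SMC4 among the rises, were not. From 6 h to 12 h, 17 of 18 calls were kept, CCNB2 being lost (0.13, adjusted p = 0.054). The lower members became 20, where this fit called 16.1% of all genes lower (11.9% in the main fit). The part of mitochondrial share in the result was not tested.

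By length, of the 12 members under 2000 bases, 2 were higher and 5 lower at 24 h (18.0% and 17.1% of all genes), with a median of -0.10. With the trends removed these became 5 higher and 5 lower (17.8% and 15.96% of all genes), with a median of 0.06. Of the 42 longer ones, 23 were higher and 2 lower, with a median of 0.20. With the trends removed 21 were higher and 6 lower, with a median of 0.12. At 3 h against 0 h, 4 of the 12 shorter members were higher and 0 lower. Of the 42 longer ones, 1 was higher and 6 lower (9.04% and 8.71% of all genes). With the trends removed these became 5 higher and 1 lower among the shorter, and 4 higher and 8 lower among the longer (12.7% and 12.9%). That fit kept 10 of the 11 calls at 3 h. KIF20A, at 3201 bases near the middle of the range, had a log2 change from 6 h to 12 h of 0.63 before and 0.63 after removal. At 24 h against 0 h, UBE2C (850 bases) went from -0.43 to -0.18 and AURKB (1227 bases) from -0.56 to -0.34, and both were still called lower. The rises of the longest members at 24 h also varied with the setting. The lowest value under any alternative was 0.13 for MKI67 (12678 bases, 0.38 in the main fit) and 0.24 for ASPM (10887 bases, 0.52). For CENPF (10307 bases, 0.32) it was 0.053, and its call was lost under 2 alternatives.

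**Figure D3:**
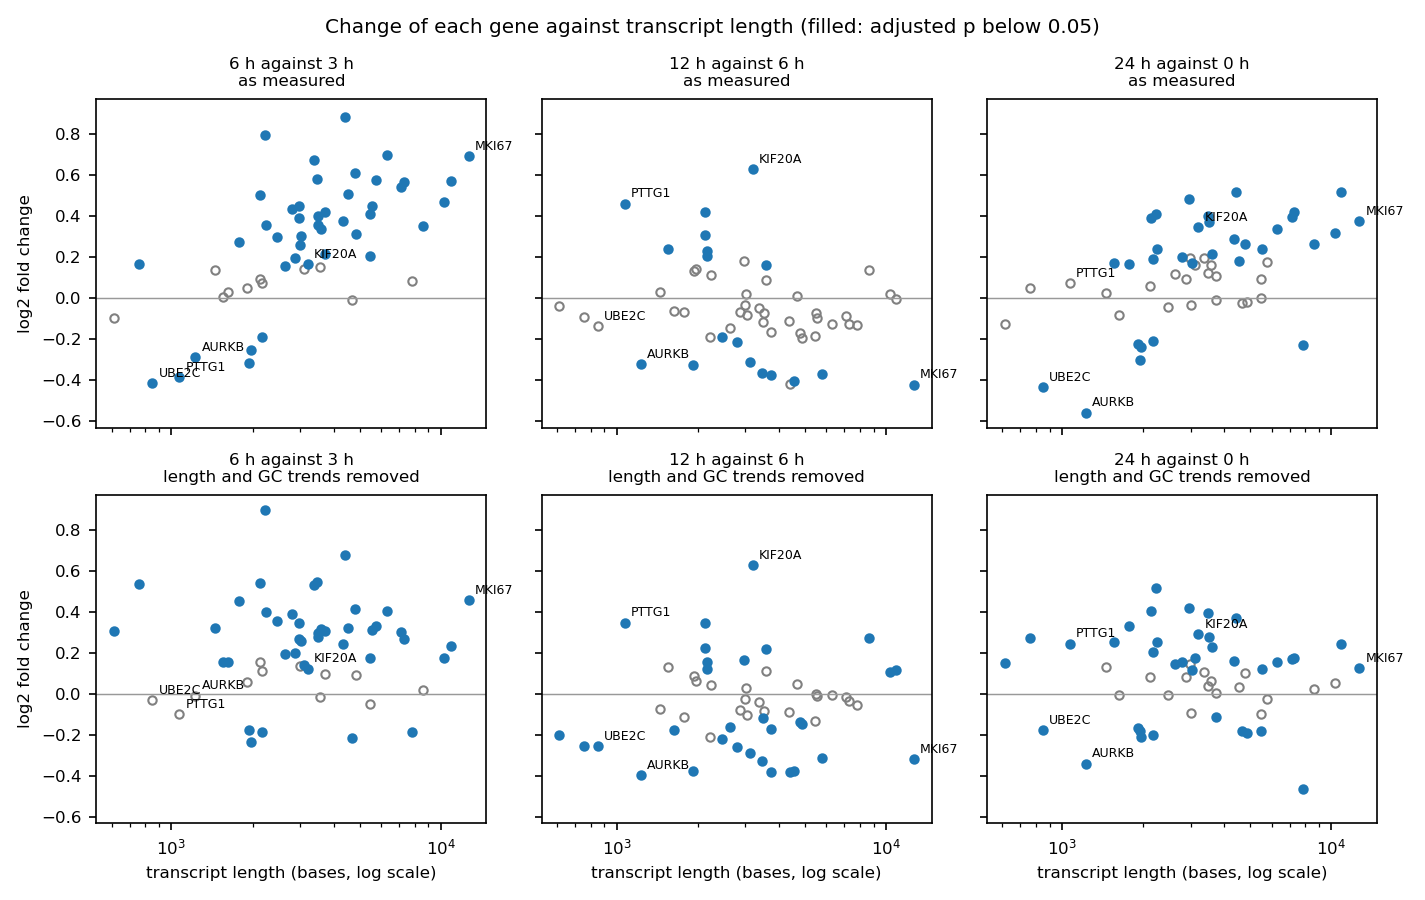
Each point is 1 of the 54 genes, with transcript length in bases (log axis) against log2 fold change for 6 h against 3 h, 12 h against 6 h and 24 h against 0 h, as measured (top) and with length and GC trends removed (bottom), filled where adjusted p is below 0.05. The upward slope at 6 h against 3 h (Spearman's rho 0.64 over 54 genes) is visible in the upper row, the SD of the 54 changes is 0.30 there and 0.23 in the lower row, and KIF20A stands at the top of the middle panels.

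Members with and without the promoter motif TTTGAA both rose at 6 h. Of the 35 with TTTGAA, 25 were called higher at 6 h, and of the 12 without it in the window, 8, where 16.9% of all genes were. From 6 h to 12 h, 2 of the 35 were higher and 7 lower (median -0.09, 8.70% and 11.9% of all genes), and of the 12 without TTTGAA, 6 were higher and 2 lower (median 0.15). Of those without TTTGAA, CCNB1, KIF20A, PTTG1, NEK2, CDC25B and CDC25C were the 6 higher, CCNA2 and AURKB the 2 lower, and BUB1, CENPE, KIF2C and CKAP2 were not called. The difference between these groups was not tested.

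Other mitotic genes and S phase genes were set beside the members. Of 57 other mitotic genes, 21 were higher and 6 lower at 6 h (median 0.10, 16.9% and 13.2% of all genes), and at 12 h 5 were higher and 9 lower (5.96% and 6.48%). ZWINT, of the kinetochore, fell to a log2 change of -0.50 ± 0.051, adjusted p = 1.4e-06 at 24 h, and CDCA5 (sororin) rose at 6 h (0.26) and was lower at 12 h (-0.34). HJURP, the chaperone of CENPA, was higher at 3 h (0.37) and lower at 24 h (-0.32). Of 40 S phase genes, 1 was higher and 19 lower at 6 h (median -0.16, 13.2% of all genes lower), 0 higher and 28 lower at 12 h (median -0.30, 6.48%), and 0 higher and 23 lower at 24 h (median -0.18, 17.1%). PCNA, the sliding clamp of DNA replication, fell from 324 ± 13.8 CPM at 0 h to 223 ± 12.4 at 6 h (SD, n = 3 each, log2 change -0.54 ± 0.061, adjusted p = 4.3e-06), and POLD1, a replicative polymerase, fell at 12 h (-0.65 ± 0.072, adjusted p = 1.1e-05). POLE was higher at 3 h (0.36) and lower at 12 h (-0.48). With length and GC trends removed, 34 of the 40 S phase genes were lower at 12 h (7.92% of all genes), while 25 members were higher (8.25%).

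**Figure D4:**
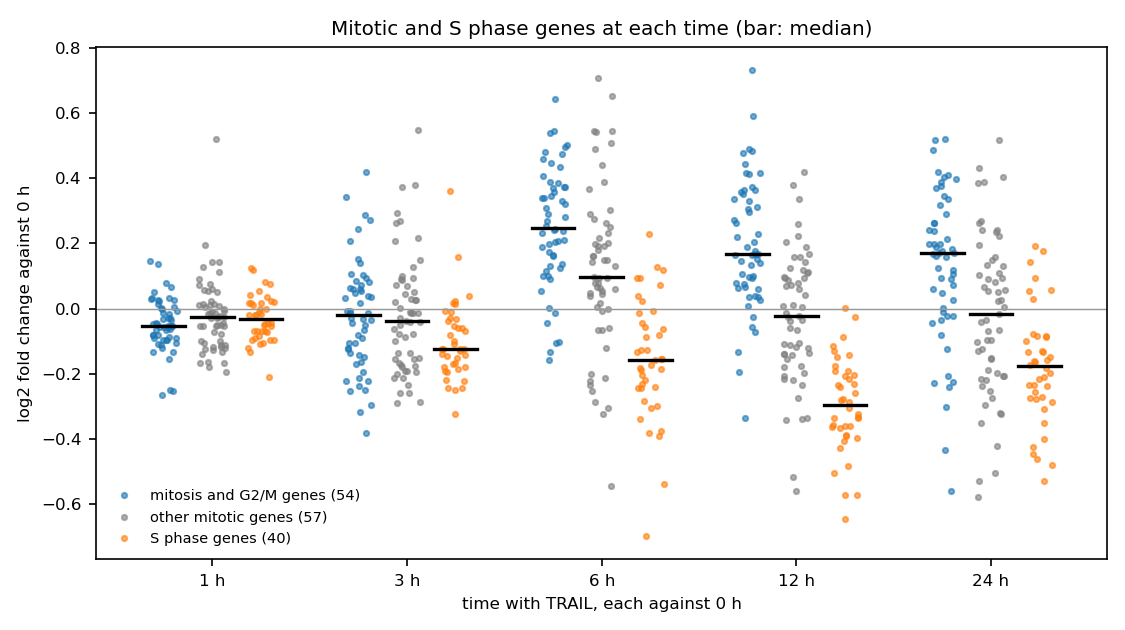
Points are log2 fold changes against 0 h of the 54 mitosis and G2/M genes (blue), 57 other mitotic genes (grey) and 40 S phase genes (orange) at each time, with a black bar at each median. At 12 h the median is 0.17 for the members and -0.30 for the S phase genes, and the 5 sets of points share the libraries at 0 h.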

How the data were processed

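The deposited table holds expected counts, that is, estimated fragments per gene (from RSEM, per the file name), with no scaling to depth or length. The labels' protocols give a stranded, poly(A)-selected, paired-end library kit. The submitters' processing notes name STAR 2.7.0f, cutadapt 1.18 and the build hg38. The annotation release, the RSEM version and the strand setting are not given in the sources used here, and without the strand setting overlapping and antisense genes cannot be told apart. Values that were not whole made up 10.8% of the table, and all were rounded.

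In edgeR 4.0.16 (R 4.3.3), low counts were filtered with filterByExpr, libraries were TMM-scaled, and a quasi-likelihood model with a mean for each time was fitted to 17 libraries. A gene was called where its p, adjusted by Benjamini-Hochberg over 15365 genes, was below 0.05, and all adjusted p-values and log2 fold changes (± SE) are from this edgeR fit unless stated. The common biological coefficient of variation was 7.06%. CPM relate each count to the TMM-scaled library total and were computed here. Alternatives were DESeq2 median-ratio scaling, library size alone, no filter, DESeq2 1.42.0, limma-voom (limma 3.58.1), the replicate number as a block, close pairs averaged, length and GC trends removed in each library (mgcv 1.9.3), and each library left out. The fit was also run on simulated counts with the same spread for every gene and no length or GC trends. That run therefore cannot show how such trends or the close pairs affect the calls here. Gene positions are those of GENCODE 29 (GRCh38) for the same Ensembl gene. 12 of the 54 versioned identifiers are equal to those of GENCODE 29, and the rest were matched without the version. Promoters are RefSeq windows on GRCh38.p14.

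The members, the gene lists and the promoters shown were chosen with earlier results of these data known. Values in every library are given for CCNB1, CDK1, PLK1, FOXM1 and the 12 members with the smallest p over all times, and for PTTG1 and MKI67, which were added after their values were seen. For each comparison the 3 highest and 3 lowest called members are named, and for other lists up to 3 genes with the smallest p.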

Additional observations from a re-analysis of the deposited data

Results flagged for a closer look

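For 4 members the change against 0 h was in one direction at 3 h and in the other at 6 h, both past the test. The same 3 h and 6 h libraries chose these 4 genes, and both comparisons share the 0 h libraries, so the difference of 6 h minus 3 h (log2 ± SE) is given as a description with no test. PLK1 was called lower at 3 h (-0.25) and higher at 6 h (0.55), and 6 h minus 3 h was 0.80 ± 0.075. All 3 libraries of PLK1 at 6 h (108 to 123 CPM) lay above those at 3 h (63.6 to 69.7 CPM). CKAP2 was called lower at 3 h (-0.32) and higher at 6 h (0.36), and 6 h minus 3 h was 0.68 ± 0.10. CKAP2 encodes a protein of the mitotic spindle. NCAPD2 was called lower at 3 h (-0.21) and higher at 6 h (0.24), and 6 h minus 3 h was 0.45 ± 0.065. NCAPD2 encodes a condensin subunit, and part of its counts was divided with other genes. CDC25B was called lower at 3 h (-0.16) and higher at 6 h (0.17), and 6 h minus 3 h was 0.34 ± 0.054. The calls at 3 h were lost for each of the 4 when 1 of several 0 h or 3 h libraries was left out.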

How the results depend on the processing

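Across the alternatives, 25 of 38 member calls at 6 h, 16 of 25 at 12 h, 16 of 32 at 24 h and 2 of 11 at 3 h against 0 h stood in every one, as did 31 of 43 from 3 h to 6 h, 12 of 18 from 6 h to 12 h, 3 of 13 from 12 h to 24 h and 0 of 1 from 1 h to 3 h. With length and GC trends removed, and in brackets with the replicate block as well, members higher at 3 h against 0 h were 9 [10], lower at 12 h 4 [4], lower at 24 h 11 [11], higher at 3 h against 1 h 9 [10] and lower 1 [1], lower at 12 h against 6 h 20 [21], and higher at 24 h against 12 h 3 [3]. The log2 change of BUB3 at 6 h against 0 h turned to -0.058 [-0.059] and that of SMC4 at 6 h against 3 h to -0.049 [-0.049]. With library size only, members lower at 12 h against 0 h were 1, lower at 24 h 4 and higher at 3 h against 1 h 0. With no filter on low counts, members lower at 12 h against 0 h were 1 (3.90% of the 29899 genes then tested). At 3 h against 1 h 2 were higher (1.97%) and 2 lower (2.11%), and at 24 h against 12 h 2 were higher (4.27%). Members higher at 3 h against 1 h were 3 with DESeq2 median-ratio scaling (3.47% of all genes), 4 with DESeq2 (3.87%) and 0 with limma-voom (2.92%). DESeq2 gave 2 higher at 24 h against 12 h (7.30%). With replicates 2 and 3 averaged at 6 h and 24 h, members higher against 0 h were 27 at 6 h (9.41% of all genes) and 16 at 24 h (11.2%). In the same setting, members higher at 3 h against 1 h were 0 (2.83% of all genes) and higher at 12 h against 6 h 4 (4.53%). At 24 h against 12 h, 0 were higher (1.80%) and 3 lower. Beyond the length and GC values, the cause was not tested.

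With each library left out in turn, 3 to 5 members were higher and 0 to 11 lower at 3 h against 0 h. Of all genes, 4.87% to 9.75% were higher and 4.35% to 9.18% lower. At 6 h, 30 to 33 members were higher (10.7% to 18.3% of all genes) and 0 to 0 lower (6.71% to 13.7%). At 12 h, 15 to 24 were higher (2.13% to 4.50%) and 1 to 2 lower (2.60% to 5.96%). At 24 h, 17 to 24 were higher (11.4% to 19.6%) and 4 to 8 lower (11.1% to 18.2%). At 3 h against 1 h, with a 3 h library left out, 0 to 1 were higher (1.86% to 3.59%) and 0 to 0 lower (1.38% to 2.69%). At 6 h against 3 h, 33 to 38 were higher (17.7% to 23.5%) and 5 to 6 lower (15.1% to 21.0%). At 12 h against 6 h, 5 to 7 were higher (4.67% to 8.52%) and 9 to 13 lower (7.09% to 12.5%). At 24 h against 12 h, 1 to 2 were higher (2.21% to 9.98%) and 4 to 14 lower. Where 1 library at 1 h was left out, the other was assumed to vary like the other groups.

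The replicate numbers were checked for pairing. The correlation of deviations between same-numbered libraries had a median of 0.089 over 40 pairs (-0.59 to 0.65, 20 of them over 0.1). Between libraries of different number the median was -0.038 over 80 pairs (-0.53 to 0.56, 33 of them over 0.1). Of the 17 libraries, 8 correlated best with those of their own number, so the numbers were not taken to pair the samples. With the replicate number as a block, members higher at 3 h against 1 h were 3 (3.73% of all genes), and no other count of members moved by over 1.5 times. The lowest count of any member in a library was 159.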

Other observations

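Genes of G2 arrest and of the control of mitotic transcription were also measured beside the 54 members. Of 9 tested G2 arrest genes, 6 were higher and 2 lower at 3 h against 0 h (9.04% and 8.71% of all genes), and 2 were higher and 4 lower at 24 h (18.0% and 17.1%). Their lowest value at 3 h was that of CCNG2, a cyclin G gene (-1.30 ± 0.13, adjusted p = 1.6e-06), named after its value was seen. GADD45A, a stress-induced inhibitor of CDK1 and cyclin B, stood at 97.7 ± 8.30 CPM at 0 h (mean ± SD, n = 3), 168 ± 11.8 after 3 h (n = 3) and 55.6 ± 3.71 after 24 h (n = 3). Its log2 changes were 0.78 ± 0.082, adjusted p = 2.1e-06 at 3 h and -0.81 ± 0.085, adjusted p = 2.4e-06 at 24 h. GADD45B was higher already at 1 h (1.08 ± 0.091, adjusted p = 1.4e-06) and lower at 24 h (-1.01). CDKN1A, the CDK inhibitor p21, was higher at 3 h (0.43) and 6 h (0.96 ± 0.057, adjusted p = 1.2e-09) and stood at a log2 change of 0.01 at 12 h (adjusted p = 0.97).

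Of 23 regulators of mitotic transcription, 6 were higher and 3 lower at 6 h (16.9% and 13.2% of all genes). E2F1, which drives S phase genes, was lower at 6 h (-0.42), 12 h (-0.60 ± 0.061, adjusted p = 4.2e-06) and 24 h (-0.39). MYBL2, which encodes B-MYB, was lower at 12 h (-0.47 ± 0.054, adjusted p = 1.6e-05) and 24 h (-0.40), while E2F4, the repressive E2F of DREAM, was higher at 3 h (0.28) and 6 h (0.25). Of 17 genes of the APC/C and its regulators, 2 were higher and 3 lower at 6 h (16.9% and 13.2% of all genes), with a median of -0.07. ANAPC1, its largest subunit (0.45 ± 0.092, adjusted p = 0.0016), and FZR1, the activator CDH1 (0.36 ± 0.070, adjusted p = 9.2e-04), were higher. The subunits ANAPC10 (-0.27), ANAPC11 (-0.26) and ANAPC16 (-0.26), named after their values were seen, were lower. CDC27, another subunit, was higher at 24 h (0.30 ± 0.086, adjusted p = 0.011).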
